A study of Mus musculus with 292 samples.

Results

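The day-peaking unnamed transcripts of mouse cerebral cortex are 60 transcripts that carry only a provisional symbol, either Gm followed by digits or a name ending in Rik, and whose level in cortex was higher in the middle of the day than late at night. They were found among 48795 gene identifiers, of which 48349 have a symbol and 24315 have a provisional one. A member had a mean of at least 1 CPM (counts per M counts of the library, M for mega) over the cortex libraries. Its mean CPM over the cortex libraries taken at ZT6 and ZT9 was at least 1.5 times that over the libraries taken at ZT18 and ZT21, with ZT9 replicate 9 left out and Gm42418, a gene known to overlap a ribosomal RNA repeat, not considered. Of 1925 provisional genes that reached 1 CPM in cortex, these 60 passed, while 15 had the opposite ratio at the same size. The ratio in cortex chose the members, so it is given below as a description and supports nothing. Just inside the threshold lay Gm6297 with a ratio of 1.505, D130020L05Rik with 1.509 and Gm15912 with 1.521, and just outside it lay 2810402E24Rik with 1.4993, Gm15860 with 1.4992 and Gm10702 with 1.4986.

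The study sampled male C57BL/6J mice of wild type genotype, 26 weeks old, every 3 h over 36 h and sequenced mRNA libraries from cortex (right hemisphere), striatum, hypothalamus and liver. ZT, zeitgeber time, counts hours of the light cycle, by convention from lights on. The light schedule itself is not given in the sources used here. All animals shared the same genotype and carried no treatment, so time of day is the compared condition. The 36 h held a first cycle and part of a second. In every tissue the libraries of ZT18 and ZT21 came from the first cycle only, while those of ZT6 and ZT9 came from both. A contrast between these hours is therefore partly a contrast between cycles. In what follows, day means the libraries of ZT6 and ZT9 and night those of ZT18 and ZT21, which were 23 and 12 libraries in cortex (without ZT9 replicate 9), 20 and 10 in striatum, 23 and 12 in hypothalamus, and 23 and 12 in liver. The 292 libraries came from 78 mice, 59 of which gave all 4 tissues, if 1 striatum code that lacks 1 letter of the code of a mouse of the same hour is read as that mouse (79 codes as spelled, 58 with all 4 tissues), so the tissues are different readings of largely the same animals.

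Most transcripts of this kind are long noncoding RNAs. Many start next to the promoter of a protein-coding gene and run the other way, others lie antisense to a gene, and the biotype TEC marks a model that still awaits experimental proof. Such RNAs are often short-lived and kept in the nucleus, so their level follows transcription closely. The circadian clock of mammals drives daily transcription through E-boxes bound by CLOCK and BMAL1, D-boxes bound by DBP and its relatives, and ROR elements bound by ROR and REV-ERB proteins, while CREB acts through cyclic AMP response elements.

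Library totals ran over 28.3 to 40.5 M counts in cortex, 11.7 to 43.4 M in striatum, 29.2 to 50.01 M in hypothalamus and 11.7 to 41.9 M in liver. At these depths 1 CPM is a low count, which limits the precision of single values. Tissue markers had medians of 1088 CPM for Slc17a7 in cortex, 613 CPM for Ppp1r1b in striatum, 161 CPM for Avp in hypothalamus and 80846 CPM for Alb in liver. Those of striatal projection neurons varied widely: Ppp1r1b ran from 34.3 to 2799 CPM and Drd1 from 0.422 to 341 CPM in striatum, while their medians in cortex were 291 and 61.7 CPM, so some striatum libraries held less of them than cortex did. Several libraries stood apart. Cortex ZT9 replicate 9 had almost no Slc17a7, and cortex ZT6 replicate 10 had the lowest median correlation with the other cortex libraries, 0.9165 against a median of 0.991 over libraries. Striatum ZT21 replicate 3 held cerebellar transcripts, hypothalamus ZT0 replicate 9 and ZT9 replicate 9 held pituitary transcripts, and liver ZT18 replicate 4 was dominated by Gm42418. Some results that rest on such a library are given with and without it. The counts of members by day against night in striatum all include ZT21 replicate 3. In hypothalamus no such count leaves out ZT9 replicate 9 by itself.

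By biotype the members were 15 antisense RNAs, 14 TEC models, 12 lincRNAs, 8 processed transcripts, 5 bidirectional promoter lncRNAs, 3 models labelled miRNA, 2 protein-coding genes and 1 snoRNA. None was a processed pseudogene, although 627 of the 1925 provisional genes at 1 CPM were. Each member was then placed in 1 class, the first that applied, by position except where stated. First, 4 were set apart as linked to Gm42418. Of these, Gm26917 lies 616 bases from Gm42418. The 3 models labelled miRNA were placed there by biotype and lie on other chromosomes, Gm23935 antisense within Zc3h7a and Gm24270 within Peak1 on its strand. Next, 28 were divergent, meaning that the nearest protein-coding start lay within 1500 bases on the other strand. Of the rest, 12 lay antisense over a coding gene, 4 lay within a coding gene on the same strand, and 12 had none of these positions. Most divergent members also overlap a coding gene on the other strand, nearly always the one they were matched to. For example, D130020L05Rik overlaps 1252 bases of Ppp4r3a. Gm27030, also divergent, lies within the coding gene Gm20388 on the same strand. Among the 54 members of long noncoding biotypes 51.9% were divergent, against 35.02% of 851 other provisional noncoding genes at 1 CPM in cortex. Their median exonic length was 2022 bases, against 2491 bases in those other genes. As measured from the annotation, 30 members shared no exonic base with another gene. The largest share was 59.97%, in Gm27004. Whether the counting used strand is not given in the sources used here, so reads of a member and of an overlapping partner may not be separable.

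The promoter windows of 3 divergent or intergenic members are printed here because the values below return to them. A window runs from 250 bases before to 50 bases after the RefSeq start in GRCm38.p6, on the member's own strand, and capitals mark every E-box CACGTG. The 0610040B10Rik window is chr5:143329058-143329357 on the plus strand, and the first base of the coding neighbour Zdhhc4, a palmitoyltransferase gene, lies 9 bases from the annotated start of 0610040B10Rik. The 9530062K07Rik window is chr6:116207944-116208243 on the minus strand, 45 bases from the start of Washc2, a subunit gene of the WASH complex. The 1700001L05Rik window is chr15:83367248-83367547 on the minus strand.
0610040B10Rik: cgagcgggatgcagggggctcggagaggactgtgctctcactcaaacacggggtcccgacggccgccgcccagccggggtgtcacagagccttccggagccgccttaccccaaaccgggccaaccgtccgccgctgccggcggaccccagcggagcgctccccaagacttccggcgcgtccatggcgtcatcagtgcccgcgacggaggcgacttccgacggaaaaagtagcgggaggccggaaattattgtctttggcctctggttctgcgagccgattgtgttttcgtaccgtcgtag
9530062K07Rik: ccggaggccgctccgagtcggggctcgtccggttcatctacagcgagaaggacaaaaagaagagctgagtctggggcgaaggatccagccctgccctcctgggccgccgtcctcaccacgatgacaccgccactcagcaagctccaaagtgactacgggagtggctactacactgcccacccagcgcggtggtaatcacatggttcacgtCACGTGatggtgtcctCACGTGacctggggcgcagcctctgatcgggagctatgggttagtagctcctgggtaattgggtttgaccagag
1700001L05Rik: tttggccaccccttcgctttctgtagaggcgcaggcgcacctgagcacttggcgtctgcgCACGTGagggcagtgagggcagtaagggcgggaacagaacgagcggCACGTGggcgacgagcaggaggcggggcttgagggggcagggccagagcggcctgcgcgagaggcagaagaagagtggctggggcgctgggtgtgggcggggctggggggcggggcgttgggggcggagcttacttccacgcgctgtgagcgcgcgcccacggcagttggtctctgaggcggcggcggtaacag

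RefSeq promoter windows were matched for 29 of the 60 members. An E-box was in 2 of the 29 (6.90%), against 7.15% of 32851 windows, with first bases 40 and 24 bases before the start in 9530062K07Rik and 190 and 144 bases before it in 1700001L05Rik. The D-box TTATGNAA was in 1 window (3.45% against 3.39%), that of Gm26679. The ROR element TAGGTCA was in 1 window (3.45% against 2.61%), that of 1700096K18Rik. The cyclic AMP response element TGACGTCA was in 1 window (3.45% against 1.79%), that of Gm10687. Both strands were searched for each motif, and no hits of different motifs overlapped in a member. The shares lay near those of all windows, while the median GC content was 63.7% in the members' windows, against 52.7% in all windows.

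Members were expressed at low levels. Their median mean level was 1.72 CPM in cortex, 1.82 CPM in striatum, 1.95 CPM in hypothalamus and 0.218 CPM in liver. All 60 reached 1 CPM in cortex by the rule, while 50 did so in striatum, 52 in hypothalamus and 17 in liver, and 22 members were under 0.1 CPM in liver. The mean was highest in cortex for 18 members, in hypothalamus for 18, in striatum for 17 and in liver for 7. Levels per length were taken from the authors' FPKM (fragments per kilobase of exon, scaled to library size). With the 57-base miRNA models and the 71-base snoRNA model left aside, Gm13375 led in cortex with a mean of 6.95. Gm15706 followed with 6.29 and Gm15912 with 6.08.

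**Figure D1:**
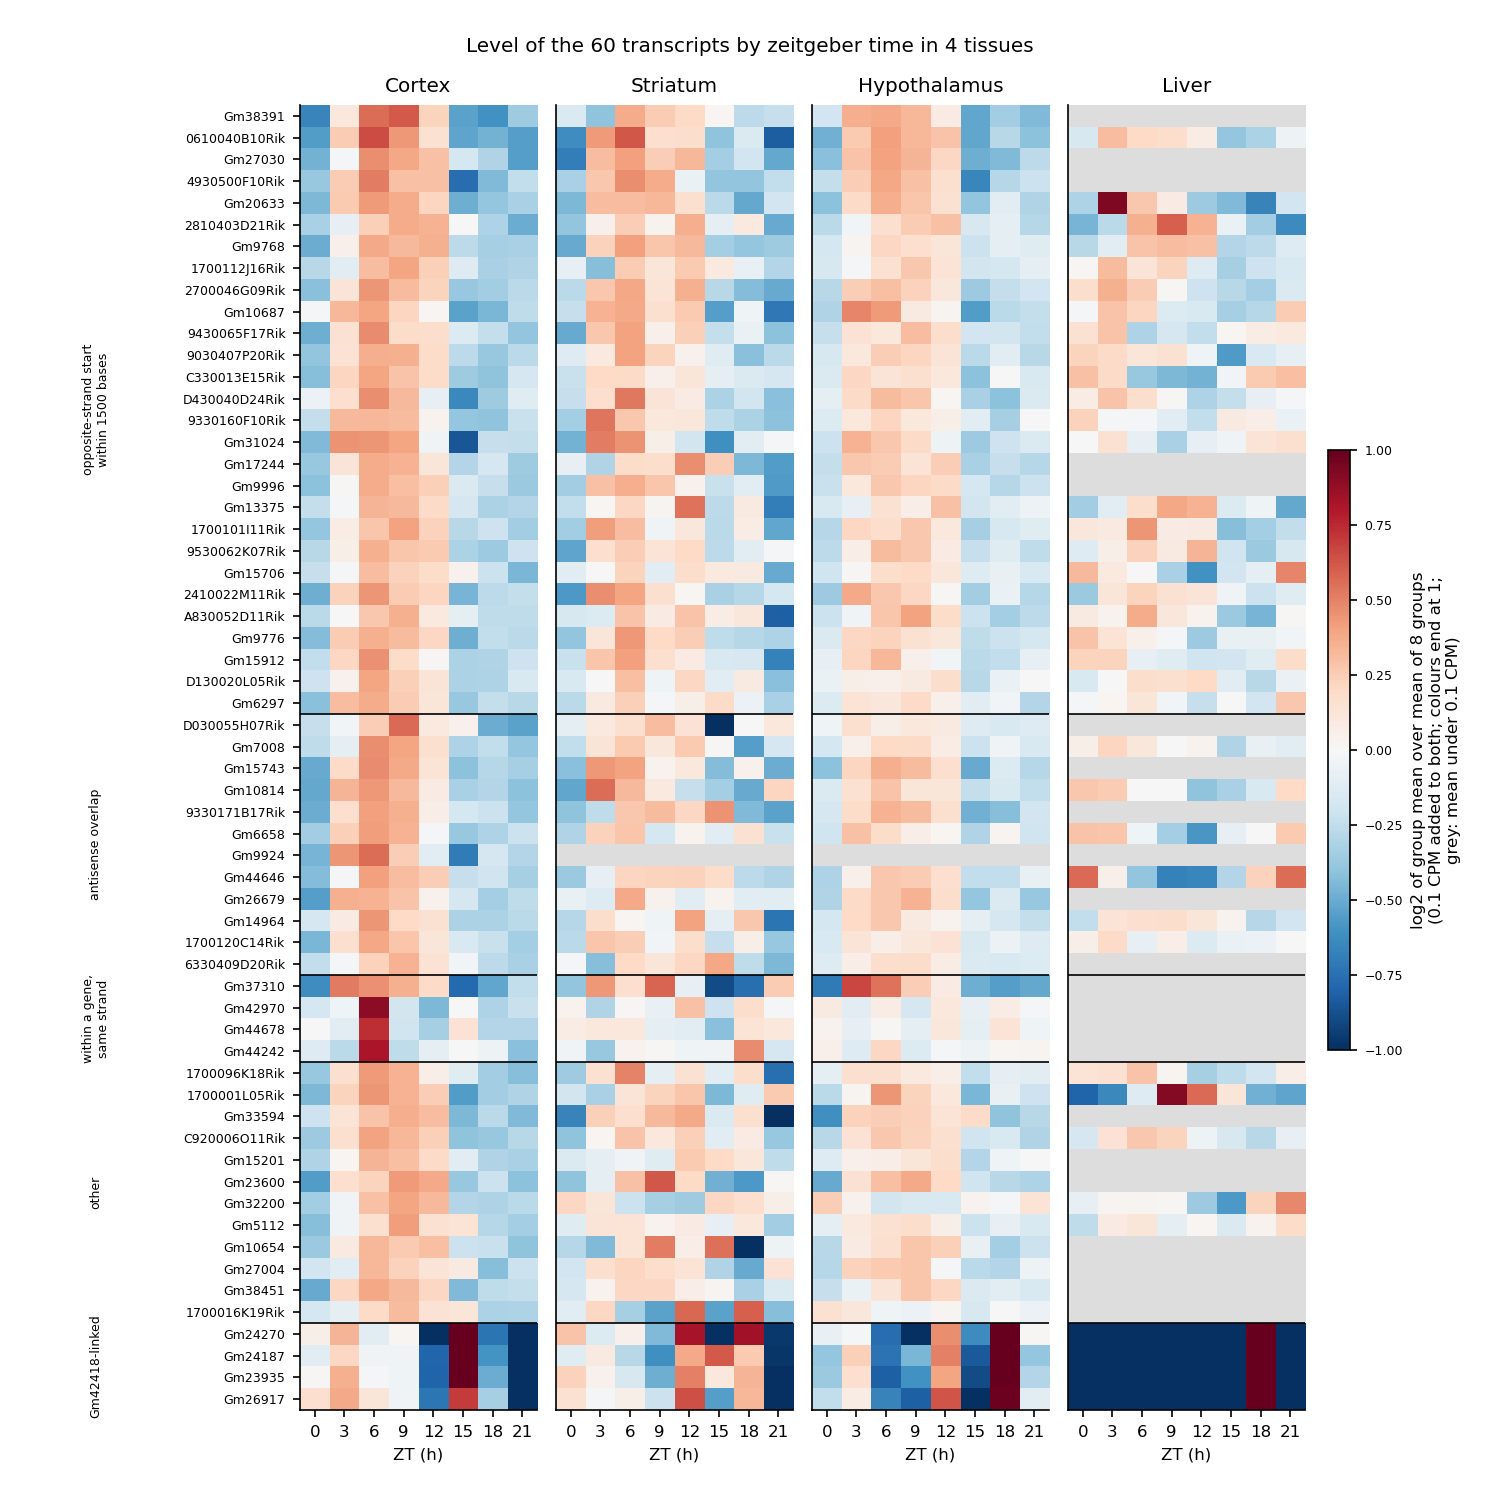
Mean level of the 60 transcripts (rows, grouped by position) at the 8 ZT groups (columns, hours) of each tissue, as log2 of the group mean over the mean of the 8 groups with 0.1 CPM added to both. Grey rows had a mean under 0.1 CPM. In cortex most rows are high from ZT3 to ZT12, with 41 members highest at ZT6, while liver rows have their highest groups spread over all 8 times.

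In cortex the summed level of the 56 members not linked to Gm42418 averaged 86.96 CPM at ZT0, 124 at ZT3, 150 at ZT6, 141 at ZT9, 127 at ZT12, 92.8 at ZT15, 90.1 at ZT18 and 89.6 at ZT21. By library it ran from 123 over a median of 144 to 221 CPM by day, against 70.6, 88.4 and 114 CPM by night. Its day and night libraries did not overlap, which the choice of members favours. The highest group mean fell at ZT6 for 41 members, at ZT9 for 12, at ZT3 for 3 and at ZT15 for the 4 linked to Gm42418. In bulk tissue, a cell type that becomes rarer and a cell type that holds less of the RNA cannot be told apart. Summed cell type markers of cortex overlapped between day and night, for example 1183 to 1660 against 1199 to 1690 CPM for 5 markers of excitatory neurons and 687 to 970 against 727 to 829.2 CPM for 4 markers of astrocytes. The mitochondrial share had a median of 5.95% by day, against 5.47% by night, and its part in the result was not tested.

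Only 4 members had every day library of cortex above every night library (0.118% of all 19541 genes tested did, and 13.9% were called higher by day in cortex by edgeR's quasi-likelihood test, a contrast that chose the members), namely 0610040B10Rik, 9030407P20Rik, 9330160F10Rik and Gm15706. The divergent RNA 0610040B10Rik had 2.38, 3.13 and 4.98 CPM by day (lowest, median, highest), against 0.907, 1.46 and 2.14 CPM by night, a ratio of 2.16. The group means of 0610040B10Rik were highest at ZT6, 3.42 ± 0.61 CPM (SD, n = 12). The divergent RNA 9030407P20Rik, which starts 48 bases from Mosmo, a modulator of hedgehog signalling, was the most abundant member outside the Gm42418 group. It had 7.75, 9.13 and 10.96 CPM by day, against 4.48, 5.58 and 7.32 CPM by night. The largest ratio was 2.22, in Gm38391, a TEC model beside the collagen lysyl hydroxylase gene Plod2, with 0.798, 1.76 and 2.44 CPM by day, against 0.374, 0.688 and 1.29 CPM by night, so that some of its libraries overlapped. Only 3 members reached a ratio of 2, the third being Gm24270 of the Gm42418 group with 2.15.

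**Figure D2:**
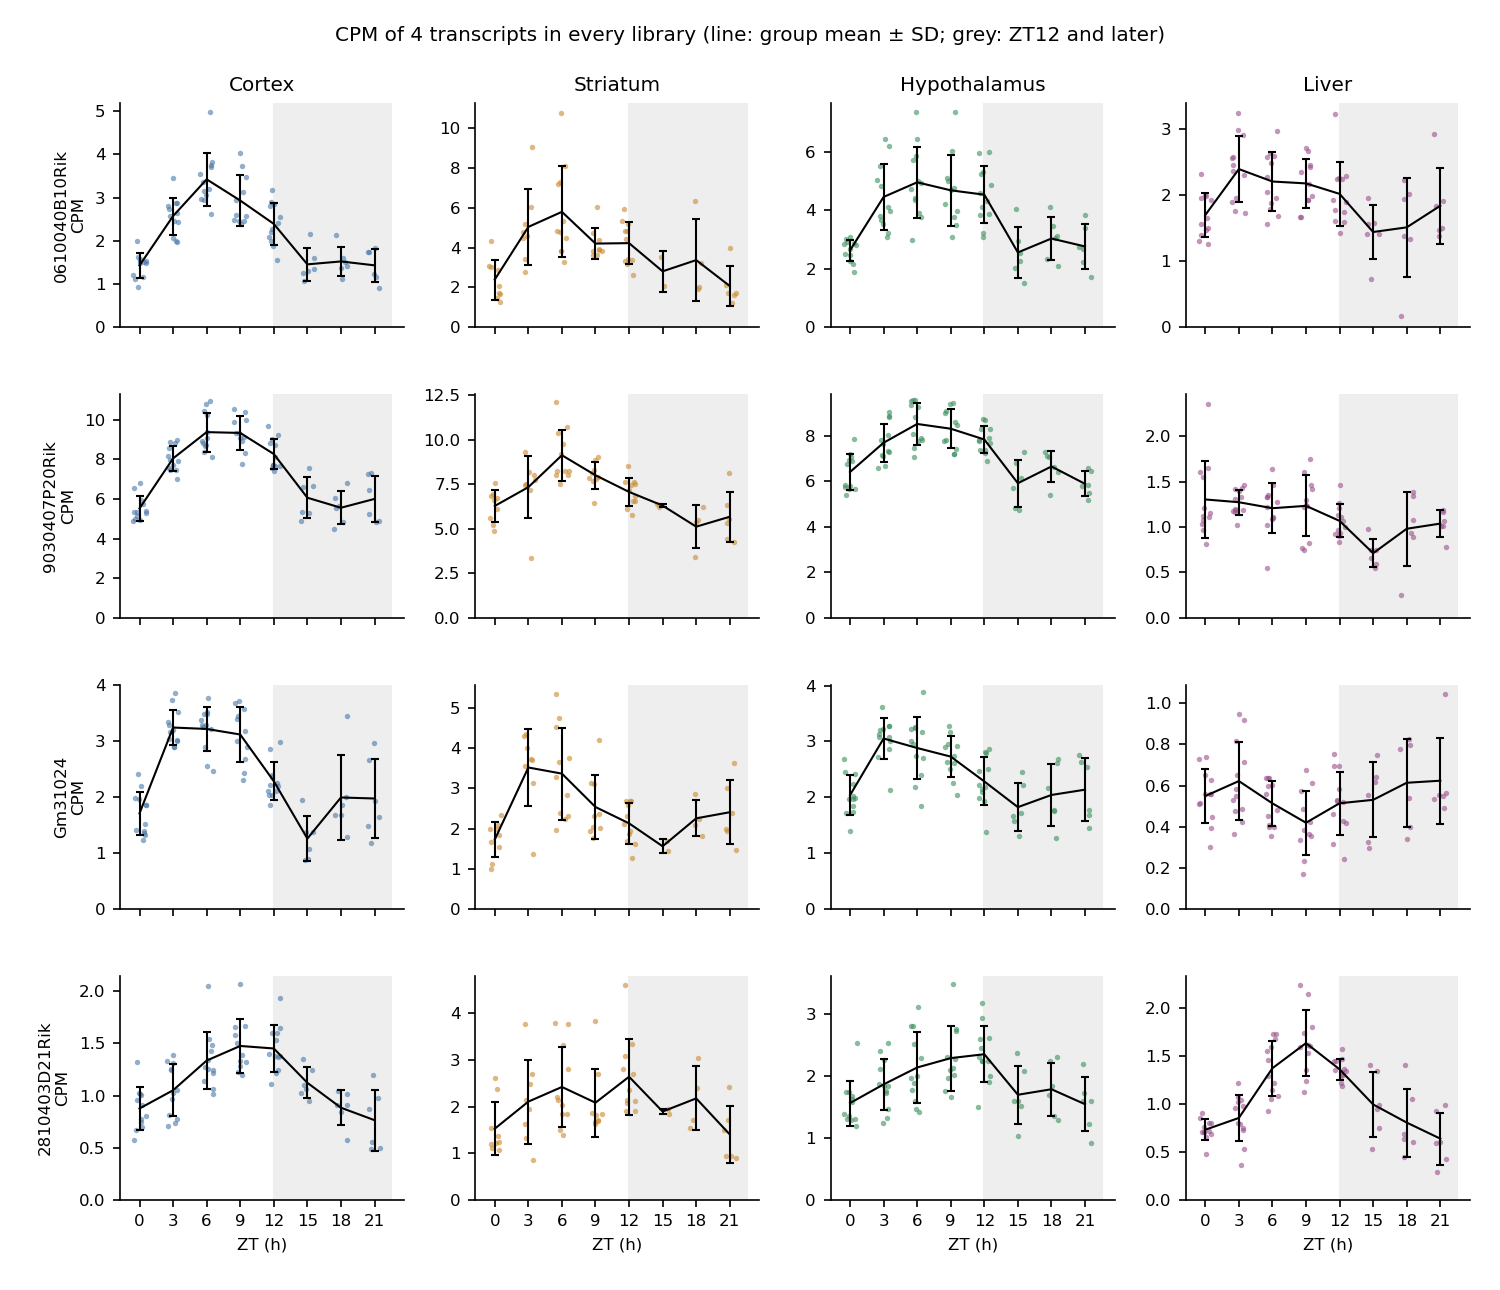
CPM (y axis, from 0) of 4 transcripts (rows) in every library of each tissue (columns) by ZT in hours (x axis), 1 point per library, with the line at group means ± SD and grey from ZT12 on. In cortex 0610040B10Rik and 9030407P20Rik have all libraries of ZT6 and ZT9 above all of ZT18 and ZT21, and 2810403D21Rik shows its widest difference in liver.

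Cortex ZT6 replicate 10 moved some ratios by itself. In it 30 members were above all 11 other ZT6 libraries and 6 were below all of them. Gm42970 had 12.99 CPM there, against 0.445 to 1.42 CPM in the others, Gm44242 had 13.8 against 0.742 to 2.49, and Gm44678 had 14.4 against 0.830 to 1.60. Without it their ratios were 1.10, 1.11 and 1.10, and 50 of the 60 members still met the rule. These 3 TEC models lie within introns of the long neuronal genes Ank2, Lrrtm4 and Dlg2 on the same strand. They are kept as members by the rule, and neither striatum nor hypothalamus called any of them. Without that library the summed level of the 56 members by day had a lowest value of 122.6, a median of 143.2 and a highest value of 158.8 CPM (n = 22). Without it the highest group mean fell at ZT6 for 31 members and at ZT9 for 19.

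Cortex libraries that the ratio did not use gave a test at other hours, although they enter the mean CPM of the rule. The ZT15 libraries came from the first cycle only, while those of ZT3, ZT0 and ZT12 came from both cycles. ZT3 against ZT15 is therefore partly a contrast between cycles. edgeR's quasi-likelihood test was fitted across all genes, and a call here means a Benjamini-Hochberg adjusted p under 0.05. At ZT3 against ZT15, 29 of 60 members were higher and 0 were lower, where 9.31% of all 19150 genes tested were higher and 20.3% were called in either direction. The median log2 difference was 0.35 over members and −0.003 over all genes. At ZT0 against ZT12, 0 members were higher and 43 were lower, against backgrounds of 14.7% higher and 15.0% lower, with a median of −0.55 over members. By edgeR without adjustment (p under 0.05), 1 member was lower at ZT3 against ZT15 and 2 were higher at ZT0 against ZT12. DESeq2, run as a second tool, called 29 higher and 0 lower at ZT3 against ZT15, and 0 higher and 44 lower at ZT0 against ZT12. Of the 60, 23 were called in both tests and 11 in neither. No share over all genes is given for these counts, so they are a description only. The 11 included Gm23935, Gm24187, Gm24270 and Gm26917, which are linked to Gm42418. The TEC models Gm42970, Gm44242 and Gm44678, described above, were also among the 11.

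The divergent TEC model Gm31024, which starts 83 bases from the rRNA methyltransferase gene Fbl, had 2.89, 3.17 and 3.85 CPM at ZT3 (n = 12), against 0.875, 1.22 and 1.94 CPM at ZT15 (n = 6). The groups did not overlap, and the log2 difference of Gm31024 was 1.34 ± 0.14 (SE, adjusted p = 1.83e-09 by edgeR). Gm37310, a TEC model within the astrocyte glutamate transporter gene Slc1a3, had 1.09, 2.79 and 3.55 CPM at ZT3, against 0.797, 1.05 and 1.24 CPM at ZT15. Only the low end of ZT3 overlapped, and the difference of Gm37310 was 1.35 ± 0.20 (adjusted p = 3.37e-06 by edgeR). Gm9776, divergent from the adaptor complex gene Ap3b1, had 3.84, 4.72 and 5.04 CPM at ZT3, against 2.04, 2.598 and 3.58 CPM at ZT15, again with no overlap. At ZT0 the snoRNA model Gm23600 had 0.893, 1.41 and 2.01 CPM, against 2.23, 2.83 and 3.596 CPM at ZT12 (n = 12 each). Its groups did not overlap, and the log2 difference of Gm23600 was −0.97 ± 0.12 (adjusted p = 5.58e-08 by edgeR). D430040D24Rik and Gm10687 rose at ZT3 against ZT15, by log2 0.87 ± 0.18 and 0.90 ± 0.16, while at ZT0 against ZT12 they were at 0.05 ± 0.14 and −0.02 ± 0.13 and were not called.

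Between the second cycle (24 to 36 h) and the first, 0 members of 60 were higher and 5 were lower, against backgrounds of 4.82% higher and 2.99% lower. The 5 were 6330409D20Rik, D030055H07Rik, D430040D24Rik, Gm23935 and Gm24187, and the log2 difference of D030055H07Rik was −0.41 ± 0.11 (adjusted p = 0.0114 by edgeR). The median log2 difference of the members was −0.03. DESeq2 called 0 higher and 6 lower, and without adjustment (p under 0.05) edgeR had 2 higher. Without cortex ZT6 replicate 10 there were 13 calls, 1 higher and 12 lower, where 20.7% of all genes were called (11.4% higher and 9.29% lower), and with ZT9 replicate 9 kept there were 3, where 6.82% were. Over all genes 7.81% were called in the fit that gave 5 members, near the members' share with both directions together. By direction the shares differed: 8.33% of members were lower against 2.99% of all genes, and 0 were higher against 4.82%. Without the 4 members linked to Gm42418, 3 of 56 were lower (5.36%) and 0 higher.

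Hypothalamus showed the most calls among the other tissues. By day against night 34 of 59 members tested were higher and 1 was lower, against backgrounds of 5.75% higher and 5.77% lower over 20407 genes. Values were above 0 for 50 of the 59, with a median log2 difference of 0.33, against −0.0006 for all genes. The antisense RNA 9330171B17Rik, which lies within Kif7, a kinesin gene of hedgehog signalling, had 4.06, 5.18 and 6.33 CPM by day, against 2.50, 3.38 and 4.61 CPM by night. Its groups met only at their ends, and the difference of 9330171B17Rik was 0.60 ± 0.08 (adjusted p = 1.19e-08 by edgeR). Gm38391 had 1.49, 2.40 and 3.86 CPM by day, against 0.844, 1.31 and 2.34 CPM by night, a difference of 0.74 ± 0.11 (adjusted p = 2.26e-06 by edgeR). For 9030407P20Rik the values were 7.07, 8.49 and 9.59 CPM by day, against 5.19, 6.44 and 7.29 CPM by night, and the difference was 0.37 ± 0.06 (adjusted p = 2.66e-06 by edgeR). In each of these 3 members the median of the day libraries was above the highest night library.

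Further values of hypothalamus are given with what the neighbouring gene does. 4930500F10Rik, divergent from the haem synthesis gene Alas1, had 1.83, 2.19 and 3.11 CPM by day, against 0.852, 1.57 and 2.08 CPM by night (log2 0.57 ± 0.09). The lincRNA C920006O11Rik, near the glutathione transferase gene Gsta4, had 6.57, 7.49 and 10.3 CPM by day, against 4.17, 5.55 and 6.68 CPM by night (log2 0.43 ± 0.07). For 0610040B10Rik the values were 2.97, 4.72 and 7.37 CPM by day, against 1.71, 2.89 and 4.11 CPM by night (log2 0.68 ± 0.13, adjusted p = 1.83e-04 by edgeR). The largest difference was 0.96 ± 0.20, in Gm37310, with 0.459, 1.64 and 3.46 CPM by day, against 0.440, 0.803 and 1.86 CPM by night, so that its groups overlapped widely. A830052D11Rik had 1.41, 1.92 and 2.43 CPM by day, against 0.576, 1.13 and 1.61 CPM by night (log2 0.61 ± 0.11), and its median by day was above all night libraries. Gm27030 had 0.644, 1.06 and 1.53 CPM by day, against 0.366, 0.542 and 0.992 CPM by night (log2 0.75 ± 0.16). Among the E-box bearing members 9530062K07Rik was at 0.46 ± 0.11 and 1700001L05Rik at 0.45 ± 0.13, both called. Beside the 4 linked to Gm42418, 5 members had a difference below 0 in hypothalamus, and none of the 5 was called. They were Gm42970, Gm44242 and Gm44678, the lincRNA Gm32200 at −0.33 ± 0.16 and the protein-coding 1700016K19Rik at −0.08 ± 0.16. Gm32200 had 0.205, 0.461 and 0.602 CPM by day there, against 0.231, 0.513 and 0.733 CPM by night, so it was low in this tissue and its groups overlapped.

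In striatum 12 of 59 members were higher by day and 0 were lower, against backgrounds of 1.17% higher and 1.46% lower over 21637 genes. DESeq2 called 16 higher and 0 lower, and without adjustment (p under 0.05) edgeR had 1 lower. Values were above 0 for 51 of the 59, with a median of 0.43, against −0.004 for all genes. Each of the 12 was also called higher in hypothalamus, which is 100% of the striatal calls and 35.3% of the hypothalamic ones, in mice that mostly gave both tissues. Over all genes 152 were higher in both, which is 59.8% of the 254 striatal and 12.9% of the 1174 hypothalamic ones. 9030407P20Rik had 6.45, 8.25 and 12.1 CPM by day, against 3.40, 5.44 and 8.13 CPM by night, a difference of 0.64 ± 0.10 (adjusted p = 1.67e-04 by edgeR). Gm9776 had 4.88, 5.93 and 7.33 CPM by day, against 2.85, 3.65 and 5.17 CPM by night, a difference of 0.58 ± 0.10 (adjusted p = 4.29e-04 by edgeR). The day and night libraries of Gm9776 overlapped only between 4.88 and 5.17 CPM. Without striatum ZT18 replicate 2 there were 5 calls, and the first cycle alone gave 1. Over all genes these settings gave 372 and 39 calls in either direction, against 570 with all striatum libraries. Markers of other cell types differed in their medians in striatum, while their ranges overlapped: 3 markers of choroid plexus summed to 148 CPM (7.49 to 13302) by day, against 843 CPM (19.4 to 6569) by night, 2 of blood to 37.01 against 58.2 CPM, and 4 of striatal projection neurons to 796 CPM (47.7 to 3875) against 887 CPM (62.001 to 2316). Their part in the result was not tested. The day and night contrast of striatum minus that of hypothalamus called 0 members, against 0.125% of 22453 genes in either direction. DESeq2 also called 0, and without adjustment (p under 0.05) edgeR had 5 positive and 0 negative.

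Liver gave a mixed picture. Unless stated, night ranges of liver here and below include ZT18 replicate 4, with 11.7 M counts and 622770 CPM of Gm42418. That share lowers the CPM of other genes in this library, so the lowest night values may come from it. Of 33 members tested, 9 were higher by day and 9 were lower, against backgrounds of 21.7% higher and 22.2% lower over 16159 genes, so the members' share was near that of all genes. The median was −0.02. Of the 9 lower, 4 were linked to Gm42418 and rested on liver ZT18 replicate 4; without those 4 members the counts were 9 higher and 5 lower of 29, with a median of 0.13. The 9 higher members included 2700046G09Rik and Gm20633, which were called higher in all 3 of these tissues. 2700046G09Rik starts 498 bases from the sphingomyelin synthase gene Sgms1, and had 0.651, 1.15 and 1.97 CPM by day in liver, against 0.257, 0.930 and 1.27 CPM by night (log2 0.32 ± 0.13, adjusted p = 0.0407 by edgeR). Without liver ZT6 replicate 7 that difference was 0.26 and was not called. In hypothalamus 2700046G09Rik was at 0.42 ± 0.11 and in striatum at 0.72 ± 0.17. Gm20633, which lies in a histone cluster beside Hist2h3c1, was at 0.66 ± 0.24 in liver, 0.52 ± 0.13 in hypothalamus and 0.69 ± 0.17 in striatum.

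The largest rise in liver was in 2810403D21Rik, divergent from the chromatin gene Brwd3, with 0.928, 1.55 and 2.23 CPM by day, against 0.289, 0.619 and 1.401 CPM by night (log2 0.97 ± 0.15, adjusted p = 2.25e-07 by edgeR). 1700001L05Rik had 0.872, 3.995 and 7.19 CPM by day, against 0.599, 2.24 and 3.10 CPM by night (log2 0.81 ± 0.13, adjusted p = 5.60e-07 by edgeR). Its cosine peak was at ZT11.3 in liver, against ZT7.5 in cortex. C330013E15Rik, divergent from Dazap2, went the other way, with 0.485, 0.866 and 1.35 CPM by day, against 0.513, 1.63 and 1.94 CPM by night (log2 −0.87 ± 0.11, adjusted p = 1.49e-10 by edgeR). It fell in liver, and in cortex at ZT3 against ZT15 it was higher, by 0.61 ± 0.16. Gm31024 also fell in liver by day, with 0.171, 0.453 and 0.676 CPM, against 0.342, 0.553 and 1.05 CPM by night.

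The difference between the day and night contrast of hypothalamus and that of liver was tested directly over 21494 genes. It was positive and called for 10 of 59 members and negative for 1, against backgrounds of 9.12% positive and 15.6% negative. Only 33 members had been tested in liver by itself, so others entered this fit through their counts in hypothalamus. Gm44646, called positive, had a mean of 0.103 CPM in liver. Of the 10, 3 were linked to Gm42418, and without that group 7 of 55 were positive and 1 was negative. The libraries came largely from the same mice, and with the mouse as a block 8 members were positive and 1 negative, against backgrounds of 8.11% and 13.2%. C330013E15Rik differed by 1.002 ± 0.17 (adjusted p = 1.20e-06 by edgeR) and Gm31024 by 0.84 ± 0.18 (adjusted p = 1.17e-04 by edgeR), and 2810403D21Rik by −0.66 ± 0.19 (adjusted p = 0.00598 by edgeR).

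A cosine of 24 h was fitted over all libraries of a tissue to place the peak. In cortex, as a description, the peak lay between ZT5 and ZT11 for 56 of 60 members, which are the 56 not linked to Gm42418, at ZT5.31 to ZT9.53 with a median of ZT7.82. The cosine called 44 of 59 members in hypothalamus against a background of 24.3%, 21 of 59 in striatum against 5.70%, and 28 of 33 in liver against 72.8%. The peak lay between ZT5 and ZT11 for 43 of the 44 called members of hypothalamus, for 19 of the 21 of striatum and for 9 of the 28 of liver. Among all called genes that window held 40.6% of the peaks in hypothalamus, 30.8% in striatum and 26.5% in the liver. The median peak of the called members was ZT7.73 in hypothalamus and ZT7.32 in striatum, close to cortex.

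**Figure D3:**
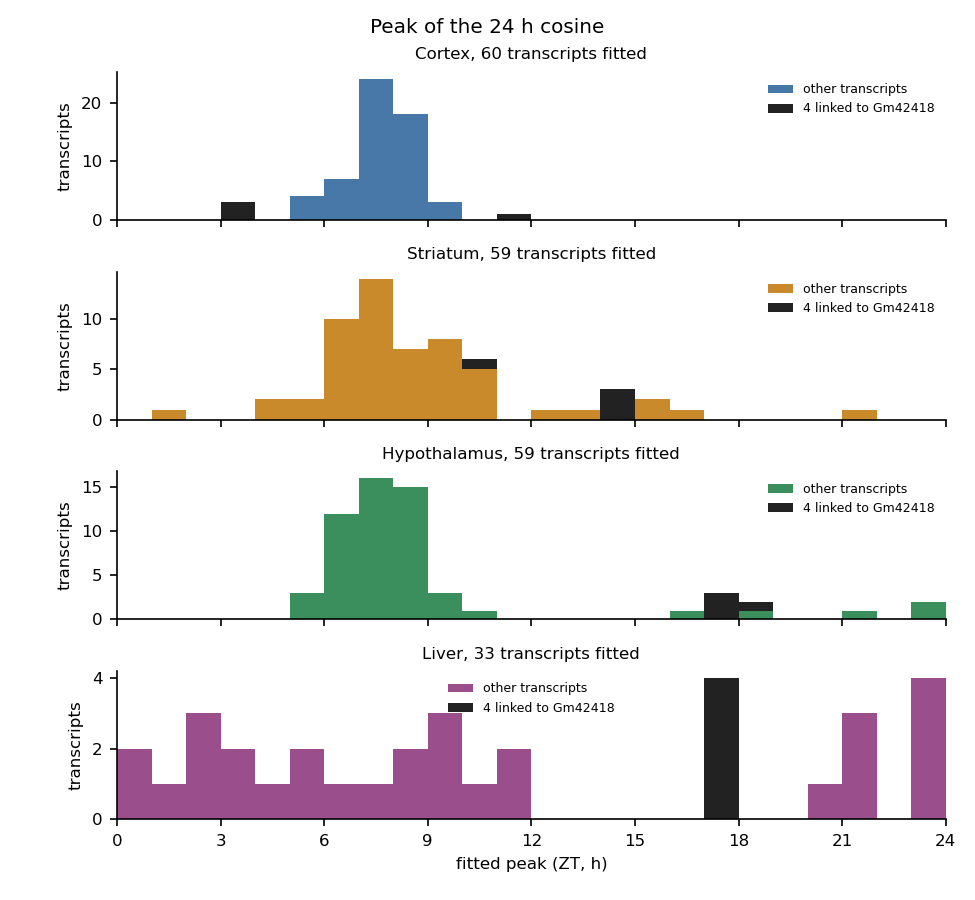
Number of transcripts (y axis) by the peak of the 24 h cosine (x axis, ZT in hours) in each tissue, with the 4 transcripts linked to Gm42418 in black and all transcripts fitted, called or not. In cortex 56 of 60 peaks lie between ZT5 and ZT11, and in liver 10 of 33.

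The divergent members were compared with the coding gene whose start lay within 1500 bases on the other strand. These starts lay up to 1251 bases apart. Most divergent members overlap that gene, so reads of a pair may not be separable. In hypothalamus 27 pairs had both genes tested: the members' median log2 difference was 0.37 and that of the partners 0.00, the member was above its partner in 26 pairs, and 1 partner was called higher and 1 lower. In striatum the medians of 27 pairs were 0.56 for members and −0.04 for partners, again with the member above in 26. At ZT3 against ZT15 in cortex the member was above its partner in 24 of 26 pairs. Mosmo was at −0.06 in hypothalamus beside 9030407P20Rik at 0.37, and Fbl at 0.03 beside Gm31024 at 0.37. In hypothalamus the called partners were Zdhhc4 and Dnaja1. Zdhhc4, beside 0610040B10Rik, rose by 0.15 (adjusted p = 0.0138 by edgeR), and the heat shock co-chaperone gene Dnaja1, beside Gm6297, fell by 0.21 (adjusted p = 0.00874 by edgeR). Mcam, a cell adhesion gene, rose by 0.84 at ZT3 against ZT15 in cortex, where Gm10687 rose by 0.90. In striatum Mcam was called higher at 0.46 and Brwd3 lower at −0.43.

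**Figure D4:**
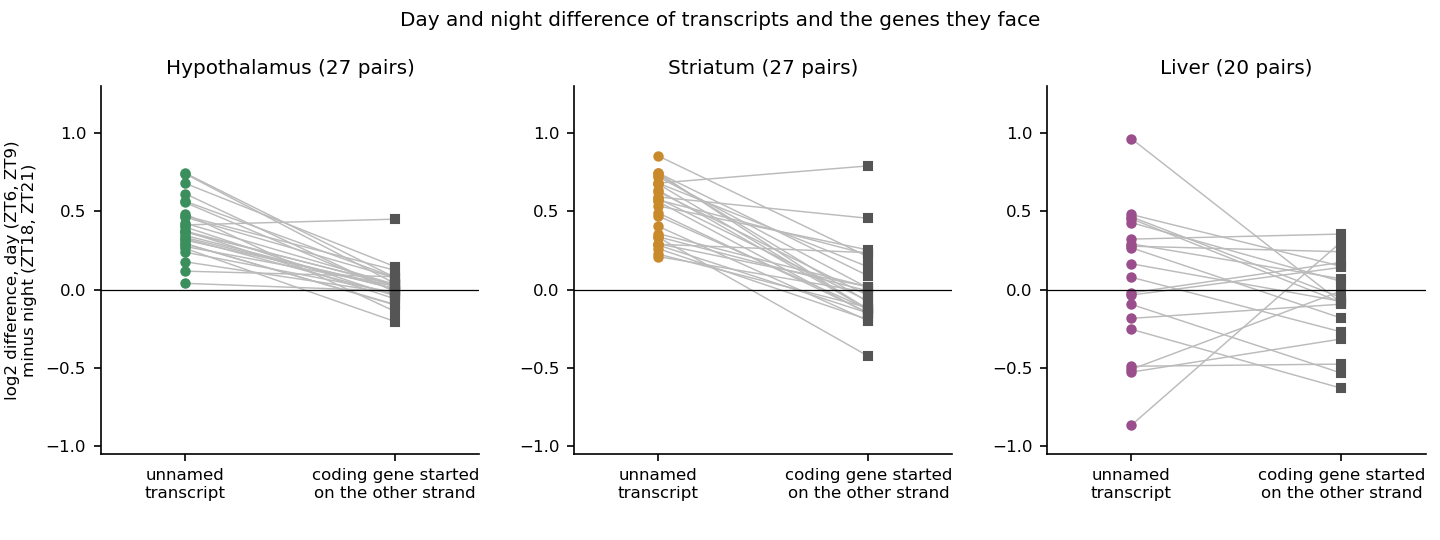
Log2 difference by day (ZT6, ZT9) minus night (ZT18, ZT21) of each divergent transcript (circles, left) and of the coding gene starting on the other strand (squares, right), with a grey line joining each pair. In hypothalamus and striatum 26 of 27 lines fall to the right, whereas in liver both sides spread about 0.

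In liver 4 partners were called higher and 6 lower by day among 20 pairs with both genes tested, where 21.7% and 22.2% of all genes were so. There C330013E15Rik and Dazap2 went opposite ways, at −0.87 and 0.31, both called. Of the 28 divergent members, 20 were called higher in hypothalamus and 0 lower, 7 were called higher in striatum, 18 were higher at ZT3 against ZT15 and 24 were lower at ZT0 against ZT12.

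Of the 12 members of the antisense class, all 11 tested in hypothalamus were above 0, with a median of 0.32, and 7 were called higher. In cortex at ZT3 against ZT15, 10 were above 0 and 2 below, and in liver 1 of the 4 tested was above 0 and 3 were below, 1 of them called. The coding gene on the other strand was mostly not called, as with Kif7 at 0.11 and Mbnl2, a splicing regulator, at 0.03. Bdh1, a ketone body enzyme, rose by 0.19 beside Gm15743, and Ifrd1 rose by 0.16 beside Gm7008. Gm9924 was not tested in hypothalamus or striatum, where its reads were near 0. Exonic bases shared with the coding gene came to 42.3% in 9330171B17Rik, 28.0% in Gm15743 and 21.1% in Gm7008.

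Of the 4 members classed as within a coding gene on its own strand, Gm37310 alone was called in hypothalamus. Slc1a3, its host, was at 0.00 there and at −0.04 at ZT3 against ZT15 in cortex. Gm23600 lies within Rian, the maternally expressed noncoding host of many snoRNAs at the Dlk1 and Dio3 locus. Gm23600 was higher by day in hypothalamus (0.63 ± 0.15) and in striatum (0.74 ± 0.19), while Rian was at −0.01 in hypothalamus and was not called. In liver Gm23600 was at 0 in every day and night library. Among the 12 members of no such position, 6 were called higher in hypothalamus and 2 in striatum, and 10 were lower at ZT0 against ZT12.

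The 4 members linked to Gm42418 did not share this pattern. Gm26917 occupies chr17:39843013-39846341, next to Gm42418 at chr17:39846958-39848788, and the 3 miRNA models are 57 bases long. Their sequences, from GENCODE transcripts of GRCm38 on the transcript strand, are printed because they are nearly the same, so that a read can match several. The capital marks position 11, counted from the 5′ end, where Gm24187 differs by G11A.
Gm23935: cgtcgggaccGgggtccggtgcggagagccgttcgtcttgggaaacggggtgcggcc
Gm24270: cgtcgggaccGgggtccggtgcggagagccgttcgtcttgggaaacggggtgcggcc
Gm24187: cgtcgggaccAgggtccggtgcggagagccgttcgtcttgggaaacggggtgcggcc

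Gm23935 lies at chr16:11144125-11144181 on the plus strand, Gm24270 at chr9:56223715-56223771 and Gm24187 at chr13:9834469-9834525, both on the minus strand, and counts of these near-identical copies are uncertain. Over 77 cortex libraries, which differ in depth, the correlation of level with Gm42418 was 0.90 for Gm23935, 0.86 for Gm26917, 0.79 for Gm24187 and 0.77 for Gm24270. The next highest member, Gm42970, was at 0.49. Striatum and hypothalamus set the 4 less apart. In liver, with ZT18 replicate 4 included, they were at 0.90 to 0.97, and the next highest member, Gm13375, was at 0.21. In striatum the 4 were at 0.84 to 0.98, while the other members ran from −0.62 in Gm10654 to 0.78 in D130020L05Rik. There 2810403D21Rik was at 0.76, Gm13375 at 0.75 and 0610040B10Rik at 0.60. In hypothalamus the other members ran from −0.68 in Gm10654 to 0.64 in 1700016K19Rik. What these correlations mean for the other members was not tested. All 4 had their highest cortex group mean at ZT15, where Gm23935 averaged 26.6 ± 18 CPM (SD, n = 6), against 13.02 ± 8.3 CPM by day and 7.80 ± 5.7 CPM by night. Gm42418 itself had a median of 3013 CPM by day in cortex, against 1688 CPM by night, and of 15112 against 25416 CPM in hypothalamus. In hypothalamus Gm26917 had 3.07, 27.7 and 90.2 CPM by day, against 6.08, 41.3 and 400 CPM by night, and was called lower at −1.31 ± 0.46 (adjusted p = 0.0421 by edgeR). Without hypothalamus ZT18 replicate 4, the library at 400 CPM, the difference of Gm26917 was −0.71 and was not called.

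In liver all 4 were called lower by day by edgeR and none by DESeq2, at −3.19 to −3.74 in edgeR, and this rested on ZT18 replicate 4. Gm23935 had 11150 CPM in that library, 24.5 to 74.6 CPM in the other 11 night libraries and 26.7 to 106 CPM by day. Without the libraries that stand apart, the log2 differences were 0.35 for Gm23935, 0.32 for Gm24187, 0.38 for Gm24270 and −0.05 for Gm26917. Leaving the 4 out, hypothalamus called 34 of 55 members higher and 0 lower, striatum 12 and 0 of 55, and liver 9 and 5 of 29.

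**Figure D5:**
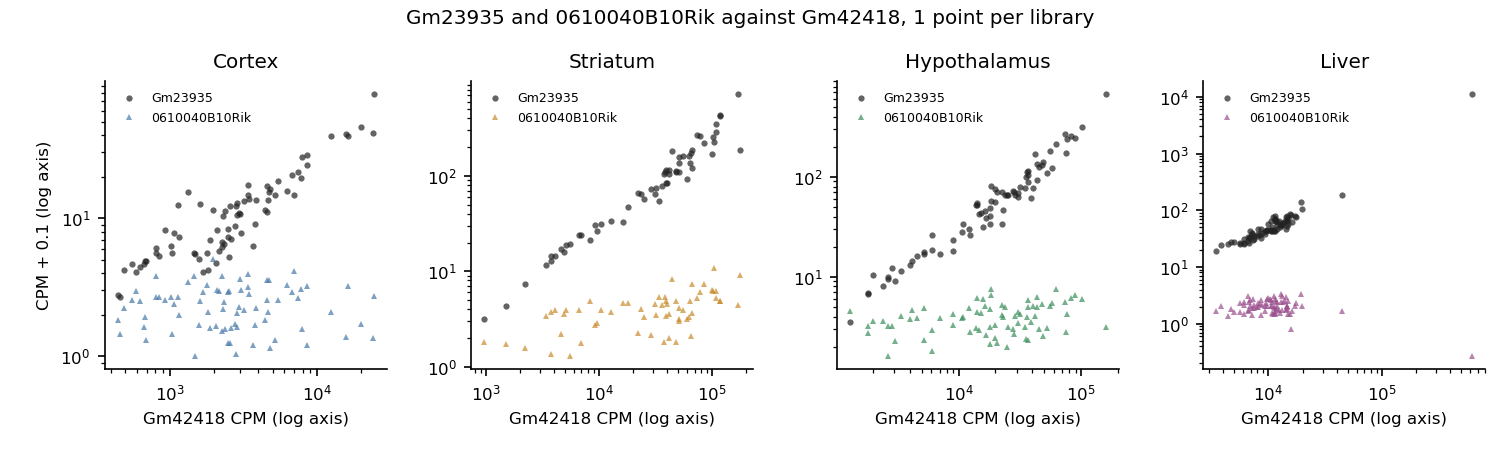
CPM plus 0.1 of Gm23935 (black circles) and of 0610040B10Rik (coloured triangles) against CPM of Gm42418, 1 point per library, both axes logarithmic. Gm23935 follows Gm42418 in each tissue, and the liver library ZT18 replicate 4, at 11150 CPM of Gm23935, lies far from the other liver libraries.

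Against the rest of the provisional genes at 1 CPM in cortex, 124 of 1842 (6.73%) were higher by day in hypothalamus and 101 were lower, and 28 and 39 of 1863 were so in striatum. The 64 genes of another symbol that passed the same cortex rule gave 32 higher and 2 lower of 60 tested in hypothalamus and 19 higher and 1 lower of 62 in striatum. As shares, 53.3% of these genes were higher in hypothalamus and 30.6% in striatum, beside 57.6% and 20.3% of the members. Long noncoding genes with another symbol at 1 CPM in cortex, chosen without regard to the ratio, gave 18 higher and 12 lower of 137 in hypothalamus.

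For orientation, 18 of 19 clock genes were called by the cosine in cortex (46.0% of all genes were), and by day against night 4 were higher and 9 lower, where 13.9% of all genes were higher and 12.4% lower. Nr1d1, which encodes REV-ERB alpha, was at 0.75, Dbp, a D-box factor, at 0.57, Per2, a repressor of CLOCK and BMAL1, at −0.91 and Cry1, another such repressor, at −0.64. Of 25 long noncoding RNAs with established names, 4 were higher and 5 lower, such as Neat1, the scaffold of paraspeckles, at 0.34. Of 20 genes known for retained introns or a response to cold, 3 were higher and 6 lower, with Cirbp at 0.83 and Rbm3 at −0.35.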

How the data were processed

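mRNA was sequenced in 292 libraries of 4 tissues from 78 mice (79 codes as spelled, 1 of them read as another), each replicate of a tissue and time being a separate mouse. The deposited tables hold raw read counts per gene made by the authors, and STAR 2.7.3a, HTSeq 0.10.0, GRCm38 and mm10 are named in the submitters' processing notes. No strand setting or annotation release is given in the sources used here. The FPKM values (fragments per kilobase of exon, scaled to library size) are the authors', named so in the headers of the deposited tables, and were used only for levels per length. Their implied exonic length matched GENCODE M21, used here for positions and biotypes, within 1 base for 47 of the 60 members. Columns were matched to samples through the mouse code, tissue and time in their names, and 0 columns were left unmatched.

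From the counts, CPM was computed on library totals. Genes passing filterByExpr by ZT group were tested with edgeR 4.0.16 (quasi-likelihood test, TMM, limma 3.58.1, R 4.3.3), with Benjamini-Hochberg adjustment over all genes tested and a threshold of 0.05. DESeq2 1.42.0 was the second tool, and the tests were checked on simulated counts. The libraries that stand apart, left out together in 1 alternative, are cortex ZT0 replicate 1, striatum ZT21 replicate 3 and ZT3 replicate 5, hypothalamus ZT0 replicate 9 and ZT9 replicate 9, and liver ZT18 replicate 4. Other alternatives were other normalizations, no filter on low counts, the first cycle alone, blocks of replicate number or mouse, and single libraries left out. Errors beside log2 differences are standard errors. Promoter windows came from RefSeq.

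The members and lists were chosen with earlier results of these data known. Members named in the text are the 12 of highest mean CPM and the 12 of largest ratio in cortex, the 5 called with the smallest adjusted p per direction and tissue by day against night, those called in all 3 other tissues, the 5 of smallest adjusted p at ZT3 against ZT15, and the 3 on either side of the ratio threshold. The rule also takes the gene overlapping a named member and the 4 called genes of smallest adjusted p per list. Of the latter, Ciart, Mir9-3hg, Mir124a-1hg, Dubr, Tra2a and Rsrp1 are not given, while Dbp is named outside the rule. Other genes named, such as 9530062K07Rik, Gm10687, Gm23600, D430040D24Rik, 9330160F10Rik, Gm44242, Gm44678, Gm32200, 1700016K19Rik and the coding neighbours, were chosen after their values were seen.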

Additional observations from a re-analysis of the deposited data

Results flagged for a closer look

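In striatum 1 night library of Gm37310, a ZT21 library at 3.15 CPM, lay far above the others, where the night libraries had a median of 0.780 CPM and the day libraries a highest value of 2.90 CPM. It was the only 1 flagged among 32 groups tested in this way. Chance flags about 1 group in 20, so this number is no more than chance gives.

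The difference of the day and night contrast, hypothalamus minus liver, passed the threshold for 11 members. It was 1.002 for C330013E15Rik, 0.84 for Gm31024 and −0.66 for 2810403D21Rik, whose values are given above. In hypothalamus 2810403D21Rik had 1.42, 2.10 and 3.49 CPM by day (lowest, median, highest), against 0.923, 1.64 and 2.30 CPM by night, and its day and night libraries overlapped in both tissues.

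The difference was 0.90 for 9430065F17Rik, which had 0.923, 1.38 and 2.05 CPM by day in hypothalamus, against 0.691, 1.02 and 1.29 CPM by night. In liver it had 0.0831, 0.266 and 0.549 CPM by day, against 0, 0.330 and 0.634 CPM by night. For Gm15706 the difference was 0.69, with medians of 6.86 CPM by day and 5.84 CPM by night in hypothalamus, against 0.665 CPM by day and 0.856 CPM by night in liver. For Gm6658 it was 0.56, with medians of 2.77 and 2.31 CPM by day and night in hypothalamus, against 1.01 and 1.42 CPM in liver. For Gm15912 it was 0.53, with medians of 3.27 and 2.64 CPM by day and night in hypothalamus, against 0.367 and 0.459 CPM in liver. In each of these 4 members the day median was the higher one in hypothalamus and the lower one in liver.

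The largest difference was 2.42, in Gm44646, an antisense member that is near the limit of detection in liver. It had 2.06, 3.07 and 3.51 CPM by day in hypothalamus, against 1.06, 2.10 and 2.94 CPM by night, and 0, 0.0318 and 0.170 CPM by day in liver, against 0.0333, 0.159 and 0.360 CPM by night.

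The differences of 2.09 for Gm23935, 1.95 for Gm24187 and 2.21 for Gm26917 rest on liver ZT18 replicate 4. Without the libraries that stand apart, their liver contrasts were 0.35 for Gm23935, 0.32 for Gm24187 and −0.05 for Gm26917.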

How the results depend on the processing

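The number of members, 60, became 167 at a ratio of 1.3, 3 at a ratio of 2, 115 at a mean of 0.5 CPM and 25 at a mean of 2 CPM. On TMM-scaled totals it was 58, of which 58 were among the 60. With the day libraries of the first cycle alone it was 82, with 55 of the 60, and with those of the second cycle alone it was 52, with 41 of the 60. The first cycle alone holds fewer libraries. It called 1 member in striatum (12 over both cycles), 22 in hypothalamus (35) and 5 in the hypothalamus minus liver difference (11). Its cosine called 11 members in striatum (21). Over all genes the first cycle called 39 in striatum (570 over both cycles) and 1074 in hypothalamus (2351). All-gene calls were 3276 in the difference (5319) and 326 by the striatal cosine (1233). Leaving out 1 of 6 striatum libraries at a time gave 5 to 14 calls by day against night, with 5 without ZT18 replicate 2, and 20 to 27 by the cosine. Over all genes these fits gave 372 to 529 calls by day against night and 1214 to 1570 by the cosine. The second against the first cycle of cortex had 5 calls. It had 8 without the libraries that stand apart and, in settings chosen after seeing the data, 3 with ZT9 replicate 9 kept and 13 without ZT6 replicate 10. All genes were called in 7.81%, 16.3%, 6.82% and 20.7% in these settings. In liver, leaving out the libraries that stand apart gave 0.35 for Gm23935, 0.32 for Gm24187 and 0.38 for Gm24270, so their direction turned. Of 1044 values of named members under all settings, 969 kept their direction and side of the threshold, 50 lost the call, 22 gained it and 3 turned.

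Replicate numbers do not pair the samples: same-numbered libraries had mean correlations of 0.16 in hypothalamus, 0.09 in cortex, 0.08 in striatum and 0.007 in liver, with some pairs as low as −0.84. With the replicate number as a block, the calls between cycles were 1, and the others were 8 in striatum, 36 in hypothalamus, 16 in liver, 32 at ZT3 against ZT15 and 51 at ZT0 against ZT12. Over all genes the block gave 426 calls between cycles (1481 without it), 887 in striatum (570), 4360 in hypothalamus (2351) and 6593 in liver (7095). At ZT3 against ZT15 it gave 3868 (3882), and at ZT0 against ZT12 it gave 6076 (5682). The cause of these shifts was not tested. Low counts limit the members in liver, where 22 were under 0.1 CPM.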
